A study of Mus musculus with 20 samples.

Results

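The cells described here are the 262 cells of cluster 10 in the authors' clustering of 21016 spinal cord cells, taken from all 6 single-cell libraries and labelled here as erythroid cells. Every library was made from female C57BL/6J mice, 8 to 10 weeks old, fed vehicle chow or chow with PLX5622 (1200 ppm by the labels, while the study's methods give another ppm value) for 2 weeks before surgery and until the end point. PLX5622 blocks the Csf1 receptor, on which microglia depend. Surgery was a contusion of the cord at T9 or a laminectomy alone (sham), and 1 cm of cord around that site was collected from unperfused animals, freed of myelin and dead cells, and pooled from 3 to 4 mice per library. The groups were sham, 7 days post-injury (7 dpi) and 28 dpi, each with vehicle or PLX5622, with 1 library per group. The labels give both sham libraries as 7 and 28 days together, so the sham library of a diet served both times. Differences between libraries therefore have no replicate check, no test was made, and all intervals below are exact 95% intervals that cover counting error only.

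A red blood cell precursor fills with hemoglobin, made of alpha and beta globin chains and heme, while it takes up iron through the transferrin receptor. Late in this maturation the cell stops dividing, expels its nucleus and becomes a reticulocyte, which clears its organelles and most of its RNA before it is a mature red cell. Reticulocytes circulate in blood, while dividing precursors are normally held in the bone marrow and, in mice, the spleen. The cords were not flushed of blood before they were dissociated.

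The label was checked against marker genes. All 7 measured erythroid markers had their highest level of the 14 clusters in cluster 10. Summed over the libraries, Hba-a2, an alpha globin, reached 33922 CPM, the gene's UMIs scaled to a common total of all UMIs, in cluster 10 against 532 in the highest other cluster. Alas2, the first enzyme of heme synthesis in red cells, reached 7891 against 121, and Slc4a1, the anion exchanger of the red cell membrane, reached 1039 against 6.13. The markers chose or shaped the cluster, so these values only describe it. Among the genes whose level most exceeded that of every other cluster were Slfn14, with 37 UMIs and none in other clusters, Hbq1b at a ratio of 177, Slc4a1 at 170 and Trim10 at 164. The Slfn14 UMIs came from sham vehicle (24) and 28 dpi PLX5622 (13) alone. Hbq1b encodes a theta globin. A beta globin gene, Hbb-bt, had 0 UMIs in all 6 matrices, and its transcript is 92.5% identical to that of Hbb-bs, so absence of its RNA and loss of its reads in counting cannot be told apart. The transcripts of Hba-a1 and Hba-a2 are 96.9% identical, and the split between them is likewise uncertain.

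The stretches of 150 bases before the start of the globin genes and Alas2 are shown because their transcripts define the cluster. The sequences come from RefSeq (GRCm38.p6), and capitals mark matches on either strand to the letters AGATAA, which Gata1 and related factors bind, and CCACCC, which Klf1 and related factors bind. Hba-a1 is at chr11:32283522-32283671 (+), Hba-a2 at chr11:32296342-32296491 (+), Hbb-bs at chr7:103827929-103828078 (-) and Alas2 at chrX:150547267-150547416 (+).
Hba-a1: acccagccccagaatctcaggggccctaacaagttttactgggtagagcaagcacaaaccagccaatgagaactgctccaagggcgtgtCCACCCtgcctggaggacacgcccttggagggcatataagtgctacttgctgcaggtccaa
Hba-a2: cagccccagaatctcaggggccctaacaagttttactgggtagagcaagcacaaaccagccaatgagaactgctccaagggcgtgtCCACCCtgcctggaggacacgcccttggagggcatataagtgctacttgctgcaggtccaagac
Hbb-bs: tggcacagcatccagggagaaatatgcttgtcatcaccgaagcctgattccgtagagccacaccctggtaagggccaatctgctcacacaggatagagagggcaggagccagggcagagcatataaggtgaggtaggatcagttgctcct
Alas2: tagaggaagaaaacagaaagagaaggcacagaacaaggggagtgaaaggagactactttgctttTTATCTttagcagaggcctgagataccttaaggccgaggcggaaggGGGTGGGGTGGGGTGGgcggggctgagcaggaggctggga
Alas2 held 1 AGATAA and 3 overlapping CCACCC, each alpha globin gene 1 CCACCC, and Hbb-bs neither of these exact strings. Near forms were not searched, such as the CCACACCC in the stretch of Hbb-bs, so the lack of a match does not mean that no such site is there. Aligned end to end, the 150 bases of Hba-a1 and Hba-a2 were 96% identical, with 6 edits. These edits lie at the window ends, since the windows are offset, with CCACCC at 61 and 64 bases before the start. The bases that both windows hold are the same. Of all 32851 promoters, 5.65% held AGATAA and 19.7% held CCACCC. Among the 15 genes most particular to cluster 10, 9 had a promoter sequence, of which 1 (Kel) held AGATAA and 4 (Trim10, Apol11b, Kel and Tspo2) held CCACCC. A match is a description of letters and not a bound site.

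Cluster 10 cells were numerous in the sham cords and rare in most injured ones. Under vehicle, 120 of 1795 sham cells belonged to it, a share of 6.69% with an interval of 5.57 to 7.94%. The share was 0.780% (0.593 to 1.01) with 58 of 7439 cells at 7 dpi and 0.355% (0.248 to 0.494) with 35 of 9846 cells at 28 dpi. Under PLX5622 it was 3.86% (2.34 to 5.97) with 19 of 492 sham cells, 4.96% (3.24 to 7.24) with 25 of 504 cells at 7 dpi and 0.532% (0.173 to 1.24) with 5 of 940 cells at 28 dpi. The intervals of both injured vehicle libraries lay below that of sham vehicle, whereas those of sham and 7 dpi PLX5622 overlapped. The denominator differed as well, since the 7 dpi vehicle library held 2154 microglia and 3023 monocyte-derived macrophages (MDMs) against 674 and 185 in sham vehicle. Over cells other than microglia and MDMs the shares were 12.8, 2.56 and 1.37% under vehicle and 4.19, 7.29 and 0.766% under PLX5622. The gap under vehicle depended on cells with few genes. Over cells with at least 500 genes the share was 0.887% in sham vehicle (0.473 to 1.51). This overlapped the intervals of 7 dpi (0.775%, 0.582 to 1.01) and 28 dpi vehicle (0.349%, 0.236 to 0.498).

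Many more barcodes rich in globin stood outside the count table, whose cells hold at least 200 genes when counted in the unfiltered matrices. The table left out 121 barcodes of sham vehicle, 102 of sham PLX5622 and 29 of 7 dpi PLX5622, and all 252 of them held at least 10% globin UMIs. Their median globin share was 21.3, 31.5 and 27.0%, at a median of 570, 593.5 and 538 UMIs. No barcode was left out at 7 dpi vehicle and 28 dpi PLX5622, and the 2 left out at 28 dpi vehicle held 0 globin UMIs. Kept and left-out barcodes with at least 10% globin together made up 11.9% of sham vehicle barcodes (10.5 to 13.4), 20.4% of sham PLX5622 (17.2 to 23.8), 9.76% of 7 dpi PLX5622 (7.37 to 12.6) and 0.319% of 28 dpi PLX5622 (0.0659 to 0.930). In the 7 and 28 dpi vehicle libraries none of 7439 and 9848 barcodes reached 10%, which allows a share of up to 0.0496 and 0.0375%. The lowest UMI count of a barcode was 500 to 502 in all 6 libraries, so smaller cells were absent from every file.

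**Figure D1:**
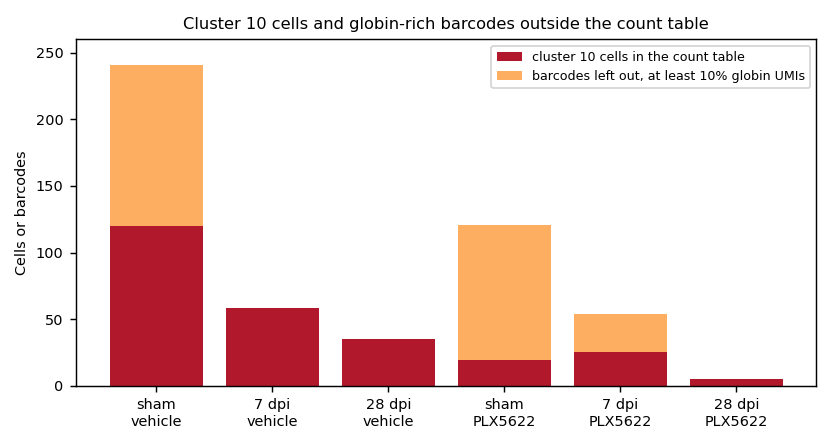
Number of cluster 10 cells in the count table (red) and of barcodes outside it with at least 10% globin UMIs (orange), per library. The orange bars add 121 barcodes to sham vehicle, 102 to sham PLX5622 and 29 to 7 dpi PLX5622, and none to the other 3 libraries.

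The cells of the injured vehicle libraries went against the label by their leading genes. The most abundant gene of cluster 10 was Hba-a2 in sham vehicle (80201 CPM), sham PLX5622 (135199 CPM) and 7 dpi PLX5622 (122466 CPM). At 7 and 28 dpi under vehicle it was Apoe, an apolipoprotein made in quantity by macrophages and microglia, at 83597 and 70478 CPM, and no globin was among the 10 most abundant genes. In the 5 cells of 28 dpi PLX5622 it was the nuclear RNA Malat1 at 94953 CPM, followed by Hba-a2. For these reasons cells are called here by their cluster and described in ranges.

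The ranges were set after the values were seen. They rest on the share of UMIs in a myeloid list of 12 genes (C1qa, C1qb, C1qc, Tyrobp, Fcer1g, Ctss, Ctsb, Lyz2, Apoe, Cd68, Aif1 and Trem2) and on UMIs of a cell cycle and progenitor list without Ube2c. Cells with at least 2% myeloid UMIs are called myeloid-high, those with at least 10 cell cycle UMIs cycle-high, and those under both bounds myeloid-low. Of the 262 cells, 151 were myeloid-low, 95 myeloid-high, 13 cycle-high and 3 over both bounds. The myeloid-low cells numbered 107, 1 and 1 in sham, 7 and 28 dpi vehicle and 18, 22 and 2 under PLX5622. The myeloid-high cells numbered 12, 55 and 26 under vehicle and 0, 2 and 0 under PLX5622. The cuts are not types, since 13 cells lay between 1 and 4% myeloid UMIs and 10 between 5 and 15 cell cycle UMIs.

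**Figure D2:**
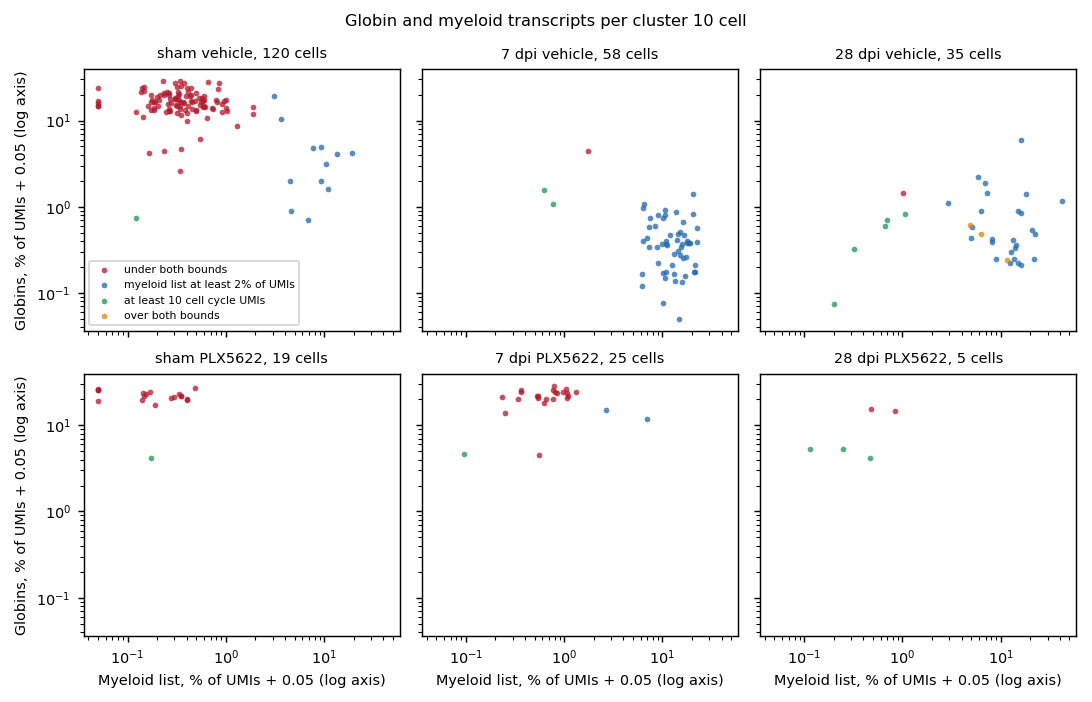
Share of UMIs in globins against the share in the 12-gene myeloid list for each cluster 10 cell, both as percent plus 0.05 on log axes, by library and coloured by range. Median globin shares are 21.8% in sham PLX5622 and 21.6% in 7 dpi PLX5622, where 3 cells hold under 5% globin (4.17, 4.47 and 4.61%) and 2 of 7 dpi PLX5622 are myeloid-high, while 55 of 58 cells at 7 dpi vehicle and 26 of 35 at 28 dpi vehicle are myeloid-high, with median globin shares of 0.321% and 0.410%.

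The ranges also differed in size. Myeloid-low cells held a median of 823 UMIs and 232 genes in sham vehicle, 1005 UMIs and 223.5 genes in sham PLX5622 and 688 UMIs and 218.5 genes in 7 dpi PLX5622. Many thus lay just above the filter of 200 genes. Myeloid-high cells held 1798 UMIs and 829.5 genes in sham vehicle, 4248 and 1503 at 7 dpi vehicle and 2205.5 and 943 at 28 dpi vehicle. Microglia of the same libraries held 3178, 2902.5 and 1686 UMIs and MDMs 5769, 5777 and 3875.

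Globins had a larger share of the summed RNA in the PLX5622 libraries and sham vehicle than in the injured vehicle libraries. They made up 12.0% of cluster 10 UMIs in sham vehicle, 0.324% at 7 dpi and 0.438% at 28 dpi, and 18.7, 17.4 and 7.19% under PLX5622. Per cell, the number of globin UMIs ran from 25 to 362 with a median of 121.5 in sham vehicle, from 0 to 67 with a median of 13.5 at 7 dpi, and from 1 to 30 with a median of 10 at 28 dpi. Under PLX5622 it ran from 146 to 274 (median 219) in sham, from 94 to 222 (median 150) at 7 dpi and from 79 to 179 (median 127) at 28 dpi. No cell of the sham and 7 dpi PLX5622 libraries overlapped the injured vehicle cells in this number, while some sham vehicle cells did.

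The make-up of the globin RNA was not constant. Hba-a1 took 1.59% of Hba-a1 and Hba-a2 UMIs in sham vehicle (1.37 to 1.84), 3.59% at 7 dpi (2.31 to 5.29) and 7.14% at 28 dpi (4.35 to 10.9). Under PLX5622 it took 2.03% in sham (1.56 to 2.61), 4.38% at 7 dpi (3.64 to 5.21) and 7.91% at 28 dpi (5.69 to 10.7). The order sham, 7 dpi, 28 dpi was the same in both diets. Within each diet the intervals of sham and 7 dpi did not overlap. Those of 7 and 28 dpi overlapped under vehicle but not under PLX5622. Hbb-bs, the major beta globin here, took 31.9% of UMIs of these 3 genes in sham vehicle (31.2 to 32.6) and 20.1% at 7 dpi (17.4 to 22.9), beside 23.8 to 26.5% in the other 4 libraries.

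**Figure D3:**
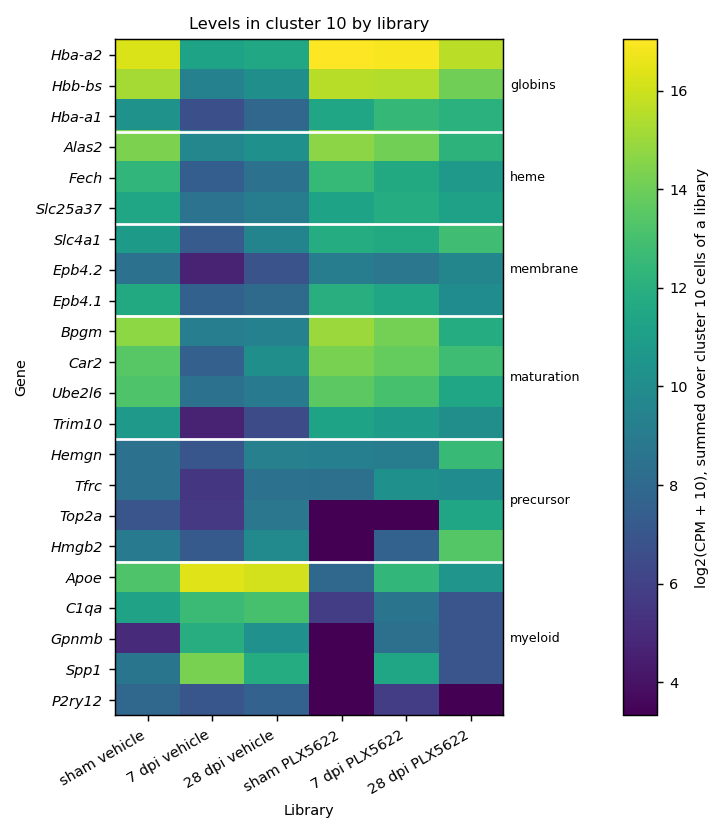
Level of selected genes summed over the cluster 10 cells of each library, as log2(CPM + 10), with rows grouped by role. Globin, heme and maturation genes are bright in both sham libraries and 7 dpi PLX5622, Apoe and C1qa in 7 and 28 dpi vehicle, and precursor genes in 28 dpi PLX5622, where Hmgb2 reached 10956 CPM.

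Genes of heme synthesis followed the globins. Alas2 stood at 20860 CPM in sham vehicle, 819 at 7 dpi and 1179 at 28 dpi, and at 25908, 17562 and 4648 CPM under PLX5622. Fech, which inserts iron into heme in the last step, stood at 5312, 162 and 342 CPM under vehicle and 5890, 3176 and 1660 under PLX5622. Both were lowest in the injured vehicle libraries. Cpox, which acts earlier in the pathway, was ordered differently, with its highest level in the 5 cells of 28 dpi PLX5622 at 1771 CPM (16 UMIs) against 388 CPM in sham vehicle. Slc25a37, the mitochondrial iron importer mitoferrin, ran from 2324 to 3596 CPM in the 3 PLX5622 libraries and sham vehicle, against 369 and 554 CPM at 7 and 28 dpi vehicle.

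The 26 measured membrane and skeleton genes together made up 2.15% of UMIs in sham vehicle (2.07 to 2.22), 0.143% at 7 dpi (0.129 to 0.159) and 0.469% at 28 dpi (0.424 to 0.518). Under PLX5622 they made up 3.13% in sham (2.90 to 3.37), 2.82% at 7 dpi (2.60 to 3.05) and 3.36% at 28 dpi (3.00 to 3.76). Slc4a1 stood at 1757, 142 and 719 CPM under vehicle and at 3635, 3223 and 7193 CPM under PLX5622, and so was highest in the 5 cells of 28 dpi PLX5622. Epb4.1, the skeleton protein 4.1, stood at 3245, 185 and 259 CPM under vehicle and at 3911, 2709 and 996 CPM under PLX5622. Rhag, a subunit of the Rh complex, had 17, 0 and 8 UMIs under vehicle and 13, 0 and 12 under PLX5622. Its level was 120 CPM (69.9 to 192), 0 (up to 14.2) and 94.3 (40.7 to 186) under vehicle and 598 (319 to 1023), 0 (up to 172) and 1328 (686 to 2320) under PLX5622. The interval at 28 dpi PLX5622 lay above those of the other libraries except sham PLX5622, which it overlapped.

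Genes of late maturation were among the most abundant after the globins. Bpgm, which makes the 2,3-bisphosphoglycerate that lowers the oxygen affinity of hemoglobin, stood at 26778 CPM in sham vehicle and 32212 in sham PLX5622. Car2, a carbonic anhydrase, stood at 11287 and 19603 CPM there, Ube2l6, a ubiquitin and ISG15 conjugating enzyme, at 9996 and 12103, and Bnip3l, which is needed to clear mitochondria from reticulocytes, at 8888 and 8697. Gpx1 and Prdx2, which remove peroxides, stood at 28796 and 6666 CPM in sham vehicle and at 39207 and 11550 in sham PLX5622. At 7 dpi PLX5622 these 6 genes stood at 18309, 14386, 8594, 5979, 38020 and 10322 CPM in the order named.

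The 11 measured iron handling genes made up 2.79, 3.69 and 2.22% of UMIs in sham, 7 and 28 dpi vehicle and 3.73, 2.79 and 1.78% under PLX5622. Tfrc, the transferrin receptor, was sparse, with 48 UMIs in sham vehicle, 17 of them in 1 cell, and 9, 30, 7, 25 and 9 UMIs in the other libraries. The ferritin chains Fth1 and Ftl1, also abundant in macrophages, stood at 10723 and 10306 CPM in sham vehicle, 19592 and 16788 at 7 dpi and 13999 and 7253 at 28 dpi. Under PLX5622 they stood at 13253 and 17348 CPM in sham, 11116 and 12097 at 7 dpi and 8632 and 4980 at 28 dpi. Hmox1, the heme oxygenase that macrophages use to break down heme, had 1 UMI in sham vehicle, 53 at 7 dpi, 6 at 28 dpi and 0 in the 3 PLX5622 libraries. Slc40a1, the iron exporter ferroportin, had 4, 3 and 1 UMIs under vehicle and 0 under PLX5622.

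A small group of cells carried cell cycle transcripts together with early red cell genes. The 13 cycle-high cells came from every library, with 1, 2 and 5 from sham, 7 and 28 dpi vehicle and 1, 1 and 3 from the PLX5622 libraries. They held 895 to 8315 UMIs, 565 to 2215 genes, 11 to 145 cell cycle UMIs and at most 1.01% myeloid UMIs. Mki67 and Top2a, which mark dividing cells, were part of the list that chose them and reached 3242 and 1993 CPM. Of genes the cut did not use, Hemgn, a nuclear protein of red cell precursors, stood at 4313 CPM in them against 316 in myeloid-low and 11.2 in myeloid-high cells. Slc4a1 stood at 4759, 2558 and 58.7 CPM in the same order, Aqp1, a water channel, at 1071, 88.2 and 0, and Klf1, a master regulator of red cell genes, at 1011, 58.8 and 0. Epor, the erythropoietin receptor, had 7 UMIs in 6 of the 13 cells and none in the myeloid-low and myeloid-high cells. Bpgm went the other way, at 863 CPM in cycle-high cells, 34247 in myeloid-low and 1214 in myeloid-high cells. Globins made up 0.686% of UMIs in the sham vehicle cell, 1.33% in the 2 cells of 7 dpi vehicle and 0.302% in the 5 of 28 dpi vehicle, against 4.17, 4.61 and 4.92% in the PLX5622 cells. Kit and Gata2, of earlier progenitors, had 0 and 2 UMIs in all of cluster 10. Cd34, another gene of the cell cycle and progenitor list, was present, with 12 UMIs in sham vehicle and 24 at 7 dpi vehicle. Its UMIs count toward the cell cycle bound.

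**Figure D4:**
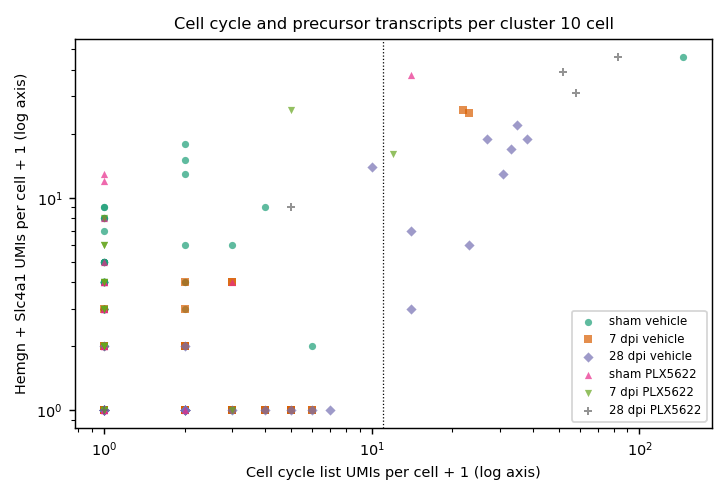
Summed UMIs of Hemgn and Slc4a1 against UMIs of the cell cycle list for each cluster 10 cell, each plus 1 on log axes, with the bound of 10 UMIs as a dotted line and libraries by colour and shape. All 16 cells over the bound hold at least 2 UMIs of these red cell genes.

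The 3 cells over both bounds were all from 28 dpi vehicle. They held 2857, 3496 and 5224 UMIs, 4.83, 6.26 and 11.7% myeloid UMIs and 26 to 37 cell cycle UMIs, together with 31 UMIs of Slc4a1 and 21 of Hemgn. Of the 26 myeloid-high cells of that library, by contrast, none held a UMI of Hemgn for 196 UMIs of Hba-a2.

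Myeloid transcripts made up 2.45% of cluster 10 UMIs in sham vehicle, 13.2% at 7 dpi and 11.1% at 28 dpi, and 0.170, 0.873 and 0.288% under PLX5622. The share of cluster 10 cells with at least 2% of such UMIs was 10% in sham vehicle (5.27 to 16.8), 94.8% at 7 dpi (85.6 to 98.9) and 82.9% at 28 dpi (66.4 to 93.4). Lymphocytes lack most of these genes, although NK cells express Tyrobp and Fcer1g and B cells Ctss, and NK cells were not separated from T cells here. In T cells of the same libraries the share was 1.49% (0.0378 to 8.04), 29.4% (22.3 to 37.3) and 26.9% (22.3 to 31.9), at median depths of 3669, 1510 and 1233 UMIs against 861.5, 4107 and 2203 in cluster 10. In B cells it was 8.70% (1.07 to 28.0), 32.6% (26.0 to 39.8) and 34.3% (29.2 to 39.8), at 2850, 2209 and 932 UMIs. By this bound, which was set after the values were seen, the cluster 10 shares at 7 and 28 dpi exceeded those of T and B cells beyond counting error. In sham vehicle the intervals overlapped. The share with at least 3 such UMIs after thinning each cell to 500 UMIs was 34.2, 100 and 94.3% under vehicle, against 37.3, 75.8 and 76.8% of T cells and 13.04, 74.2 and 83.9% of B cells, and 10.5, 68 and 20% under PLX5622. Without thinning it was 59.2, 100 and 100% under vehicle and 36.8, 76 and 80% under PLX5622. After thinning, the cluster 10 interval at 7 dpi vehicle (93.8 to 100) lay above those of T cells (68.2 to 82.4) and B cells (67.4 to 80.3). At 28 dpi vehicle it (80.8 to 99.3) overlapped both (72.0 to 81.1 and 79.5 to 87.7).

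The kind of myeloid transcript in myeloid-high cells was compared between libraries. UMIs of 12 MDM genes, such as Gpnmb, Spp1 and Fabp5, were set against those of 12 microglia genes, such as P2ry12, Tmem119 and Siglech. The ratio in myeloid-high cells was 0.534 in sham vehicle (0.479 to 0.595), 6.06 at 7 dpi (5.80 to 6.34) and 2.73 at 28 dpi (2.51 to 2.97). In microglia of these libraries it was 0.224, 1.40 and 1.48, and in MDMs 1.89, 10.4 and 6.20, so the ratio in myeloid-high cells lay between those of both types each time. In sham vehicle, however, 1 of the 12 myeloid-high cells held 328 of the 513 MDM gene UMIs and 246 of the 960 microglia gene UMIs. The value there thus depends strongly on 1 cell, which its interval does not cover. From 7 to 28 dpi the ratio was lower in myeloid-high cells and MDMs but slightly higher in microglia, with intervals of 1.39 to 1.41 and 1.47 to 1.49 that did not overlap. Spp1, osteopontin, stood at 1346 CPM in myeloid-high cells of sham vehicle, 20044 at 7 dpi and 4515 at 28 dpi, against 4929, 20649 and 15027 in MDMs. P2ry12, a purinergic receptor of microglia, stood at 754, 117 and 254 CPM, against 2410, 351 and 510 in microglia.

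Myeloid-high cells were set against all microglia and MDMs of the same library. Genes were ranked where myeloid-high cells held at least 15 UMIs. A gene thus enters only through the cells where it is high, so the lead of red cell transcripts is a description. At 7 dpi the genes with the highest ratios included Slc4a1, Hba-a1, Alas2, Hba-a2, Hbb-bs, Car2, Bpgm and Isg20. Hba-a2 stood at 2215 CPM (567 UMIs) there against 12.3 CPM in microglia and MDMs, a log2 ratio of 7.50 (7.30 to 7.70), and at 28 dpi at 3116 against 6.29 CPM (8.95, 8.63 to 9.28). Of 17 genes of red cell uptake and heme recycling, 14 reached the minimum of 30 UMIs in both populations together at 7 dpi. Of these 2 were at least 2-fold higher in myeloid-high cells and 0 lower, beside 9.10% of all genes higher, with a median log2 ratio of 0.07. In sham vehicle 4 of 12 were higher and 1 lower (median -0.05, beside 18.1% of all genes higher), and at 28 dpi 4 of 13 were higher and 0 lower (median 0.19, beside 23.8%). The share of all genes lower is not given, so the counts lower have no background. The 1 lower gene, Hmox1, rested on 1 UMI (-1.53, -6.84 to 0.96). So did Vcam1 among the higher genes of sham vehicle (1.56, -3.78 to 4.15) and 28 dpi (1.18, -4.13 to 3.68). The 2 at 7 dpi were Blvrb (1.20, 0.86 to 1.53) and Ncoa4 (1.20, 0.65 to 1.69), which red cells also express. Hmox1 differed by 0.24 (-0.18 to 0.63) and Axl, a receptor for apoptotic cells, by 0.22 (-0.19 to 0.60). Spic and Timd4, of resident red pulp and other tissue macrophages, had 0 UMIs in cluster 10. The clusters were made from the expression of these same cells, so these ratios describe the cluster.

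The injured vehicle cells were compared with those of sham vehicle over all genes with at least 30 UMIs together. At 7 dpi 51.2% of 1472 genes were at least 2-fold higher and 17.8% lower, with a median log2 ratio of 1.04, and at 28 dpi 40.6% of 799 were higher and 25.7% lower, with a median of 0.66. Both comparisons share the sham library. Other scalings moved these shares, to 36.8% higher and 21.3% lower at 7 dpi and 9.26 and 36.9% at 28 dpi with edgeR's TMM factors, and to 68.8 and 14.1% at 7 dpi with DESeq2's size factors. With each cell weighted alike they were 67.5 and 16.4% at 7 dpi. The TMM medians were 0.58 and -0.32, and those at 7 dpi with DESeq2 and with each cell alike 1.84 and 1.82. The comparison sets libraries with 1 myeloid-low cell each against one with 107, so a change within a cell and a change in which cells make up the cluster cannot be told apart.

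At 7 dpi the globins and the genes of heme synthesis, membrane and maturation were all lower. Of the 5 globins 5 were at least 2-fold lower, of 8 testable heme synthesis genes 8, of 12 membrane and skeleton genes 12 and of 26 maturation genes 26, beside 17.8% of all genes. Their median log2 ratios were -5.01, -4.06, -3.93 and -4.19. Of 10 antioxidant genes 6 were lower and 2 higher, and of 6 iron handling genes 3 were lower and 1 higher. Leaving out genes under 3 UMIs in either library, the lowest ratios were those of Trim10, needed for terminal red cell maturation (-6.81, -8.69 to -5.43), Fam213a (-6.24) and Apol11b (-6.06). Hba-a2 had 11369 UMIs in sham and 645 at 7 dpi (-5.01, -5.13 to -4.90), Car2 1600 and 46 (-6.00, -6.45 to -5.57) and Slc4a1 249 and 37 (-3.63, -4.17 to -3.12). Of 12 myeloid list genes 11 were at least 2-fold higher and of 11 MDM genes 10, while of 11 microglia genes 1 was higher and 1 lower, beside 51.2% of all genes higher. Under the same minimum the highest were Fabp5, a fatty acid binding protein (7.62, 6.26 to 9.50), Gpnmb (7.44, 5.89 to 9.72) and Lgals3 (6.49, 4.94 to 8.77), with 3 or 4 UMIs each in sham.

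At 28 dpi the decrease was less uniform. Of the 5 globins 5, of 9 heme synthesis genes 6, of 14 membrane and skeleton genes 10 and of 27 maturation genes 23 were at least 2-fold lower, beside 25.7% of all genes. In these lists 1 gene was at least 2-fold higher, Alad of heme synthesis (1.43, 0.37 to 2.55). Of 8 antioxidant genes 6 were lower and 1 higher, and of 5 iron handling genes 2 were lower and 0 higher. With that minimum Bpgm had the lowest ratio, with 54 UMIs against 3796 (-5.39, -5.81 to -5.01). Slc4a1 was 1.29 lower (-1.72 to -0.88), Tfrc differed by 0.06 (-0.65 to 0.75), and Hemgn was higher by 0.80 (0.21 to 1.39), as were Top2a (1.91, 1.02 to 2.86) and Mki67 (1.05, 0.36 to 1.76). The direction of Hemgn turned with TMM factors (-0.18) and, in an alternative chosen after seeing the data, without cells over the cell cycle bound (-0.82), where Slc4a1 was at -3.76 and Tfrc at -1.56. With TMM factors Tfrc was at -0.91 and Mki67 at 0.077. Of 12 myeloid list genes 11 were at least 2-fold higher and of 9 MDM genes 8 were higher and 1 (Cd36) lower, beside 40.6% of all genes higher, or 9.26% with TMM factors.

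At 7 dpi the cells of PLX5622 and vehicle cords differed in the opposite sense. PLX5622 was compared at this time alone, since the other times held fewer than 20 cells under it. Of 1125 genes 14.0% were at least 2-fold higher and 41.6% lower under PLX5622, with a median log2 ratio of -0.83. Of 3 globins 3, of 7 heme synthesis genes 7, of 7 membrane genes 7 and of 22 maturation genes 21 were higher, and of 12 myeloid list genes 12 were lower. Car2 was higher by 6.35 (5.89 to 6.83) and Hba-a2 by 5.63 (5.50 to 5.75), while Apoe was lower, with 116 UMIs against 21736 (-3.95, -4.22 to -3.68). Here too 22 myeloid-low cells stood against 1. The 7 dpi vehicle library is shared with the comparison against sham.

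Red cell transcripts were then set against each other within ranges, as UMIs per 1000 Hba-a2 UMIs, which removes the dilution by RNA that holds neither gene. The genes are grouped below by these values. In sham vehicle, per 1000 Hba-a2 UMIs, Hbb-bs stood at 476 in myeloid-low cells, 517 in the barcodes left out of the table and 472 in myeloid-high cells. Alas2 stood at 261, 249 and 239, Ube2l6 at 125, 118 and 124, and Bpgm at 338, 299 and 291. The ratio of myeloid-low cells to left-out barcodes was 0.919 for Hbb-bs (0.877 to 0.963), 1.05 for Alas2 (0.986 to 1.11), 1.06 for Ube2l6 (0.976 to 1.15) and 1.13 for Bpgm (1.07 to 1.19). The ratio of myeloid-low to myeloid-high cells was 1.01 for Hbb-bs (0.884 to 1.15), 1.09 for Alas2 (0.923 to 1.30), 1.01 for Ube2l6 (0.807 to 1.27) and 1.16 for Bpgm (0.994 to 1.36). It was larger for Fech at 1.48 (1.05 to 2.16), for Mkrn1, a ubiquitin ligase, at 1.68 (1.25 to 2.29) and for Cd24a, a surface glycoprotein, at 1.76 (1.24 to 2.58).

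Car2, Slc4a1, Prdx2 and Gpx1 were lower still, both in left-out barcodes and in myeloid-high cells. Car2 stood at 144, 50.8 and 3.90, a ratio of 2.82 (2.55 to 3.13) between myeloid-low cells and left-out barcodes and of 36.8 (12.5 to 179) between myeloid-low and myeloid-high cells, the last from 3 UMIs. Slc4a1 stood at 21.4, 7.43 and 2.60, with ratios of 2.88 (2.22 to 3.76) and 8.23 (2.24 to 68.5), the last from 2 UMIs. Prdx2 stood at 82.3, 49.5 and 18.2 and Gpx1 at 368, 249 and 139. In microglia and MDMs of this library Car2 stood at 74.7 (13 UMIs) and Alas2 at 247 per 1000 Hba-a2 UMIs. Prdx2 stood at 2103 and Gpx1 at 9971 there, so for these genes the scaling does not set RNA of other cells apart in myeloid-high cells. Left-out barcodes held fewer than 200 genes, and the part of that choice in these values was not tested.

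**Figure D5:**
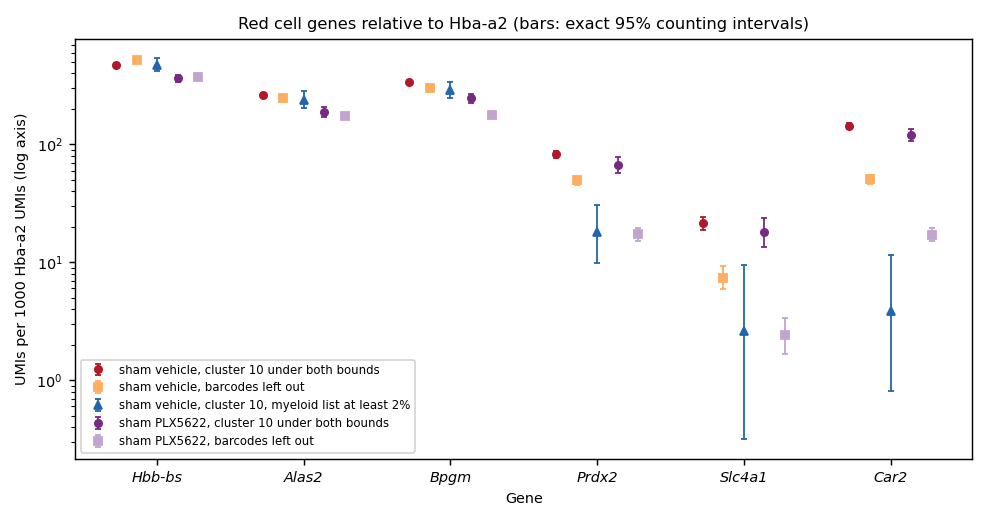
UMIs of 6 red cell genes per 1000 Hba-a2 UMIs on a log axis, in cluster 10 cells under both bounds, left-out barcodes and, for sham vehicle, myeloid-high cells, with exact 95% counting intervals. Hbb-bs and Alas2 stay close together, while Slc4a1 and Car2 spread, in sham vehicle from 144 to 3.90 for Car2.

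Car2 and Slc4a1 also differed in both other libraries with such barcodes. In sham PLX5622 Car2 stood at 121 in myeloid-low cells and 17.2 in left-out barcodes (ratio 7.02, 5.91 to 8.34) and Slc4a1 at 18.2 and 2.41 (7.55, 4.80 to 12.0), while Hbb-bs stood at 363 and 376, Alas2 at 187 and 173 and Bpgm at 246 and 178 (1.38, 1.25 to 1.51). In 7 dpi PLX5622 the gap was smaller, with Car2 at 110 and 51.8 (2.12, 1.72 to 2.61) and Slc4a1 at 23.5 and 9.11 (2.58, 1.61 to 4.22). Myeloid-high cells of 7 dpi vehicle held Car2 at 47.6, Slc4a1 at 30.0 and Alas2 at 326 per 1000 Hba-a2 UMIs. Against myeloid-low cells of sham vehicle, Car2 was thus lower by a ratio of 3.01 (2.04 to 4.63), whereas Slc4a1 was not resolved (0.714, 0.432 to 1.26). Hbb-bs was lower there too, at 266 against 476 (1.79, 1.49 to 2.16). Those of 28 dpi vehicle held Car2 at 51.0 (10 UMIs) and Alas2 at 367.

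Globin UMIs were also found outside cluster 10. The share of other cells with at least 1 globin UMI was 20.2% in sham vehicle, 5.66% at 7 dpi and 2.04% at 28 dpi, and 28.5, 24.8 and 8.13% under PLX5622, at median depths of 3357, 3981, 2269, 3599, 5429 and 2648 UMIs. In T cells, which make no globin, it was 17.9, 4.58 and 1.72% under vehicle. Cluster 10 held 85.0, 43.7 and 43.4% of a library's globin UMIs under vehicle and 70.6, 76.7 and 56.5% under PLX5622. In MDMs of 7 dpi vehicle, 157 of 3023 cells held a globin UMI and 8 held at least 10, while cells of cluster 10 there held a median of 13.5.

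Markers of lymphocytes were near 0 in cluster 10. T cell markers Cd3e and Cd3d and B cell markers Cd79a and Ms4a1 had 0 UMIs. The summed level of 6 neutrophil markers ran from 46.0 to 837 CPM and that of 6 endothelial markers from 0 to 184 CPM. Of 7 platelet markers, Pf4 held 128 of the UMIs, 114 of them at 7 dpi vehicle, and it is also expressed by some macrophages. Scrublet, which scores barcodes likely to hold more than 1 cell, marked 6 of 262 cells, 4 of them among the 12 myeloid-high cells of sham vehicle and 1 among the 55 at 7 dpi vehicle. Over all clusters it marked 1256 of 21016 cells (5.98%), with 26 of 1795 (1.45%) in sham vehicle and 443 of 7439 (5.96%) at 7 dpi vehicle. The number marked in a library was fixed beforehand as the number expected from its size. Of cluster 10 barcodes 1 was also present in another library.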

How the data were processed

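The authors aligned 10x Chromium reads with Cell Ranger (3.0.2 in the matrix headers), annotated them with Ensembl mouse genes and clustered cells with Seurat. The submitters' processing notes list GRCm38 and mm10 without saying for which reads. The deposited values are raw UMI counts per gene and barcode, for each library and for 1 filtered table of 21016 cells and 16003 genes with a cluster number per cell. The stated upper limit of 3000 genes is not seen in that table, and no mitochondrial gene is among the features, so no mitochondrial share was computed. Libraries held 2673189 to 35696441 UMIs before the filter, and cluster 10 held 141757, 260008 and 84793 UMIs in sham, 7 and 28 dpi vehicle and 21731, 21410 and 9036 under PLX5622.

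UMIs were summed over the cluster 10 cells of a library and given as CPM. Shares have Clopper-Pearson, sums Poisson and ratios conditional binomial exact 95% intervals. PCR and library effects are outside these intervals. Comparisons used genes with at least 30 UMIs together, with a floor of 3 counts for a gene at 0. The ranking of genes in myeloid-high cells over microglia and MDMs instead used a minimum of 15 UMIs in myeloid-high cells. Named genes are those of the gene lists, the 10 most abundant per library, the 10 highest and lowest ratios, and the 15 most particular to the cluster, some of which are not reported here. Thinning drew 500 UMIs per cell. Doublets were left in, as in the authors' clusters, and Scrublet (scanpy 1.11.5) was used at 0.8% per 1000 cells, calling the expected number of top scores, since its own threshold called 1 of 9846 cells at 28 dpi vehicle. Scripts ran in Python 3.11.15 (pandas 2.3.3, scipy 1.17.1) and in R 4.3.3, where edgeR 4.0.16 and DESeq2 1.42.0 gave scaling factors only. The ratio step was tested on simulated data. Members and gene lists were chosen with earlier results of these data known. Bulk RNA-seq was not analysed here.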

Additional observations from a re-analysis of the deposited data

Results flagged for a closer look

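The share of cluster 10 cells moved in opposite directions from sham to 7 dpi in the diets, by -5.91 percentage points under vehicle (from 6.69 to 0.780%) and by 1.10 points under PLX5622 (from 3.86 to 4.96%). With 1 library per group this difference was not tested, and the intervals of both PLX5622 shares overlap. The PLX5622 direction turned when barcodes left out of the table were counted: barcodes with at least 10% globin UMIs made up 20.4% in sham PLX5622 (17.2 to 23.8) and 9.76% at 7 dpi (7.37 to 12.6), so that this share was lower at 7 dpi in both diets. Barcodes with at least 10% globin UMIs stood outside the count table in 3 libraries, 121 in sham vehicle, 102 in sham PLX5622 and 29 in 7 dpi PLX5622, against none in the others. They are raw barcodes under the filter of 200 genes, and the log2 ratios between libraries did not use them.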

How the results depend on the processing

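Over cells other than microglia and MDMs, the shares of cluster 10 cells were 12.8, 2.56 and 1.37% in sham, 7 and 28 dpi vehicle and 7.29% in 7 dpi PLX5622. Over cells with at least 500 genes they were 0.887% in sham vehicle, 0.238% in sham PLX5622 and 0.447% in 7 dpi PLX5622, since most of these cells hold fewer genes. In 7 and 28 dpi vehicle they were 0.775 and 0.349% at this setting, with intervals that overlapped that of sham vehicle. With each cell weighted alike, globin shares were 15.3, 0.477 and 0.767% under vehicle and 21.3, 20.2 and 8.88% under PLX5622, and myeloid shares 1.19, 12.6 and 10.6% under vehicle. Over cells with fewer than 3 myeloid UMIs the globin share was 17.1% in sham vehicle and 22.0, 14.3 and 5.20% under PLX5622. The 7 and 28 dpi vehicle libraries held no such cell, so no value or ratio could be computed there. Without cells that Scrublet marked, it was 13.1% in sham vehicle and 6.41% in 28 dpi PLX5622, and the myeloid share of sham vehicle 1.63%. Without cells over the myeloid or cell cycle bound, an alternative chosen after seeing the data, the globin share was 16.5, 4.43 and 1.39% under vehicle, the last 2 from 1 cell each, and 22.0, 19.4 and 15.0% under PLX5622. Of UMIs other than globins, the myeloid share was 2.79% in sham vehicle and 1.06% in 7 dpi PLX5622. With a minimum of 10 myeloid UMIs, 12.5, 82.9, 0, 12 and 0% of cells passed in sham vehicle, 28 dpi vehicle and sham, 7 and 28 dpi PLX5622, and after thinning 34.2% in sham vehicle, 10.5% in sham PLX5622 and 20% in 28 dpi PLX5622 passed the minimum of 3.

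With TMM factors 9.26% of genes were at least 2-fold higher at 28 dpi, and the median over all genes was -0.32. With a minimum of 10 UMIs over both libraries, the share at least 2-fold lower was 14.4% at 28 dpi, and with one of 100 it was 28.2% at 7 dpi and 39% at 28 dpi. Of 1639 alternative values of 276 named ratios, 1495 stayed on their side of the 2-fold bound, with their direction where they were past it, 95 newly passed it, 41 no longer did and 8 of values past it turned direction. Values under the bound could change sign uncounted. With each cell weighted alike, Btg2 was at 0.25, Hemgn 1.08, Hmgb2 1.89, Mki67 0.33 and P2ry12 0.12 at 7 dpi, and Btg2 at 0.44 at 28 dpi. Without sham cells over the myeloid bound, chosen after seeing the data, P2ry12 was at 1.27 at 7 dpi and Btg2 at 0.50 at 28 dpi. The cause was not tested. In sham vehicle myeloid-high cells Car2 per 1000 Hba-a2 UMIs was 11.3 with a bound of 1%, 2.67 with one of 5% and 3.81 without the cells Scrublet marked, settings likewise chosen after seeing the data. No paired analysis was possible because each group has 1 library. Depth limits cycle-high cells and 28 dpi PLX5622, where 5 cells held 9036 UMIs in all.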
